A study of Mus musculus with 9 samples.

Results

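Amacrine cells are represented here by 9 genes that give these inhibitory interneurons of the retina their transmitters and their identity: Gad1, Gad2, Slc32a1, Slc6a9, Chat, Th, Calb2, Tfap2a and Tfap2b. They were picked by gene symbol from the deposited count table, which lists 48679 names, and all 9 symbols were found. Expression was measured by RNAseq in retinas of C57BL/6J mice 12 weeks old. In laser-treated mice, which had been given eosin Y as a photosensitizer, the large veins of 1 eye were occluded by laser (RVO), and the fellow eye received laser spots that spared these vessels (control). Both were taken at d2, and retinas of mice without laser treatment served as untreated samples. Each of the 3 samples per group was a pool of 6 retinas from 6 mice, so n counts pools. The retinas of all groups were whole tissue, and fewer amacrine cells cannot be told apart from less RNA per cell. P-values measure the spread between these pools.

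Amacrine cells lie in the inner retina and shape the signals that bipolar cells pass to ganglion cells. Most of them release GABA or glycine, which inhibit their targets. Starburst amacrine cells also release acetylcholine and serve the detection of motion direction, and a sparse class releases dopamine and takes part in light adaptation. Several of the 9 genes are shared with other retinal neurons: horizontal cells use GABA genes and AP-2 factors, and calretinin is also found in ganglion cells.

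The promoters of Gad1, Gad2, Slc32a1 and Th are shown as examples of genes that make the transmitter or load it into vesicles. That of Chat, which also makes a transmitter, is not shown. Between RVO and untreated eyes the log2 fold changes were -1.33 for Gad1, -1.88 for Gad2, -0.19 for Slc32a1 and -1.30 for Th. The sequences are from RefSeq on build GRCm38.p6, read 5′ to 3′ on the strand of the gene. They lie within the 250 bases before the RefSeq start and stop at any exon of the same gene that GENCODE vM21 annotates there. Those of Gad1 and Th lie inside the annotated genes, downstream of the GENCODE gene starts at 70553072 and 142931128. Of the 9 genes, 8 had a promoter entry, and Calb2 had none. Capitals mark matches on either strand to GCCNNNGGC, the binding letters of AP-2 factors such as Tfap2a and Tfap2b, or to TGACGTCA, the cAMP response element. The first pair of lines gives the GABA synthesis genes at chr2:70561879-70562041 and chr2:22622077-22622204, the third the vesicular transporter gene at chr2:158610508-158610757, and the last Th on the minus strand at chr7:142900015-142900245.
Gad1: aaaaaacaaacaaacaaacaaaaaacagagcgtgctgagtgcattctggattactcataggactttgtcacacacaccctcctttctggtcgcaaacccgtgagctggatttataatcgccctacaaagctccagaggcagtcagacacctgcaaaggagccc
Gad2: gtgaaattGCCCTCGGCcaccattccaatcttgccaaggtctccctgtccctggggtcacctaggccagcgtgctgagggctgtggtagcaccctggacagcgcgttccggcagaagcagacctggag
Slc32a1: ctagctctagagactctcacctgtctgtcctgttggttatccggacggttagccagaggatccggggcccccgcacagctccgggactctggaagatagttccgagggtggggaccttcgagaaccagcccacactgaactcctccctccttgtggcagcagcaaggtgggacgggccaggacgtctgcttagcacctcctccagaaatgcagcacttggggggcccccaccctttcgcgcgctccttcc
Th: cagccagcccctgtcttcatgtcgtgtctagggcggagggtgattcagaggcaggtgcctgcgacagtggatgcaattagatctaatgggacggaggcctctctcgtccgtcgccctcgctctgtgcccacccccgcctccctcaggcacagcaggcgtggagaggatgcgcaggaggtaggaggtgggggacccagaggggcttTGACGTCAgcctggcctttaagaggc
The Gad2 stretch held 1 AP-2 match and the Th stretch 1 cAMP response element, and those of Gad1 and Slc32a1 held neither. In its full 250 bases Gad2 held 2 AP-2 matches, and the matches of the other genes shown were the same. Over the full 250 bases before each of 32851 promoters in the RefSeq table, 13.7% held the first motif and 1.55% the second. A match describes the letters only. The Slc32a1 stretch also holds 196 bases of an exon of the noncoding gene Gm14204, which is read from the opposite strand.

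Total counts were 21022997 to 28993921 in RVO pools, 18897218 to 23419497 in control pools and 12377572 to 15245869 in untreated pools. Levels are given as normalised CPM, the reads of a gene per 1e6 reads of its pool after scaling by edgeR's TMM factors, and are comparable between pools for 1 gene. Mitochondrial genes took 7.73% to 9.92% of the reads of untreated pools, 3.32% to 3.86% of control pools and 1.77% to 3.17% of RVO pools. The 9 rod markers summed to at least 47418 CPM in every pool, and none was at 0. Genes of the lens, which is not part of the retina, stood apart in RVO replicate 2 and control replicate 1. The 12 lens genes summed to 5604 CPM in RVO replicate 2 against 177 and 488 CPM in RVO replicates 1 and 3. In control replicate 1 they summed to 2766 CPM against 380 and 202 CPM in replicates 2 and 3, and in untreated pools to 5.26 to 27.1 CPM, where Mip and Lim2 were at 0. Results are therefore also given without these pools, and the part of lens RNA in them was not tested.

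The amacrine cell genes were lower in RVO pools than in untreated and control pools, with 1 exception against untreated pools, whereas control and untreated pools differed in both directions. Between RVO and untreated eyes 8 of the 9 genes fell and none rose at an adjusted p under 0.01 (edgeR's quasi-likelihood test with Benjamini-Hochberg, BH, adjustment over all genes tested). Of all 16380 genes tested, 24.6% fell and 27.4% rose by that rule. The exception was Slc32a1. The median log2 fold change (log2FC, fitted by edgeR and given with its standard error, SE) of the 9 genes was -1.30, and that of all genes was 0.01. Between control and untreated eyes 5 genes fell, 1 rose and 3 did not pass the test, where 25.2% of 16066 genes fell and 27.2% rose, and the median was -0.28. Of these 5 genes, Gad1, Calb2 and Tfap2a were no longer called when pools were scaled by library size only, and in 1 fit of all 9 samples, which takes in the spread of the RVO pools, none of the 9 genes was called at 0.01, with adjusted p-values from 0.0168 upwards (edgeR, BH). In that fit 2997 of all 17112 genes fell and 3403 rose. Between RVO and control eyes none passed 0.01, where 0.634% of 16874 genes fell and 2.7% rose. At an adjusted p under 0.05 all 9 were lower, where 17.1% of all genes were lower and 17.5% higher. The median of the 9 genes was -1.04. Unadjusted p-values were under 0.05 for all 9, and for 7940 of the 16874 genes tested (edgeR). The groups did not overlap for 8 genes between RVO and untreated eyes, all lower in RVO, where 35.5% of all genes were separated in that direction and 37.8% in the other. Between RVO and control eyes this held for 9 genes against 25.4% of all genes. In control against untreated eyes 5 genes were separated downwards and 1 upwards, where 33% and 36.8% of all genes were.

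**Figure D1:**
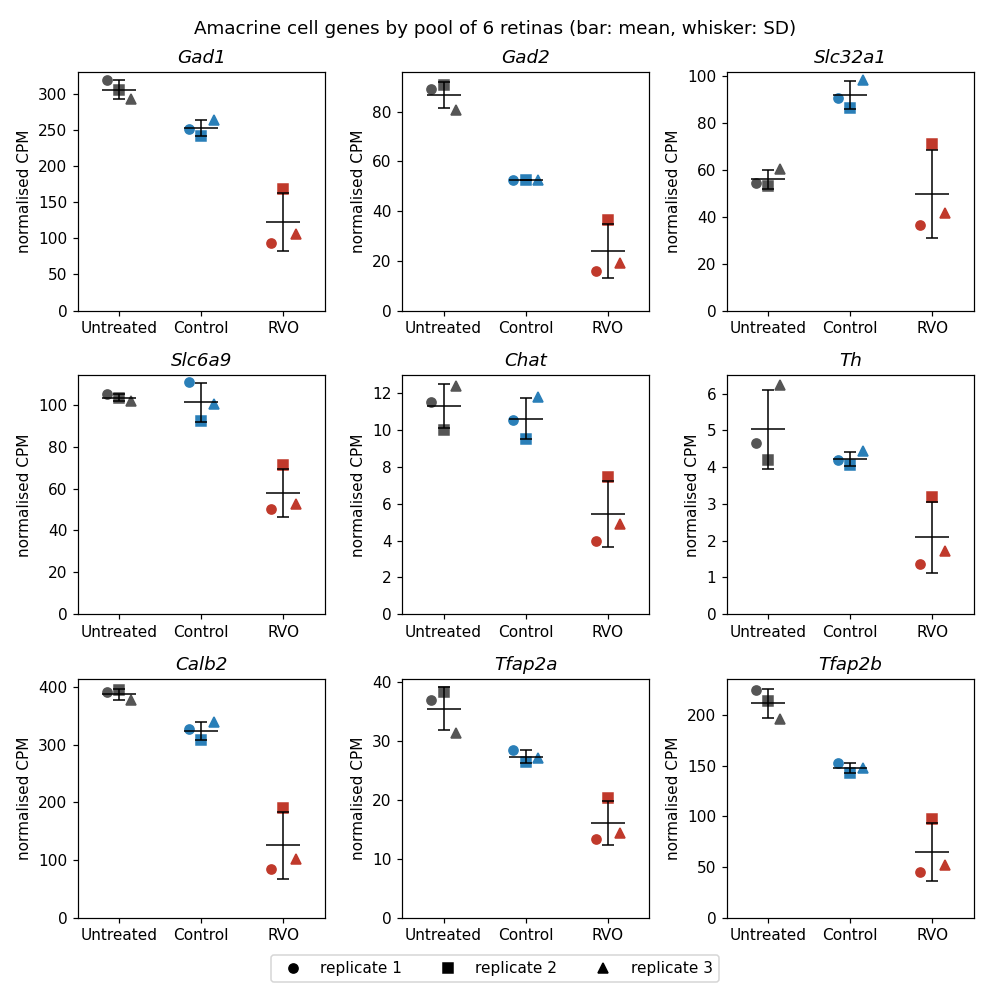
Normalised CPM (vertical axes, from 0) of the 9 genes in each pool of untreated, control and RVO eyes, with circles, squares and triangles for replicates 1, 2 and 3, a bar for the mean and whiskers for the SD of 3 pools. RVO pools lie below control pools for every gene, RVO replicate 2 is the highest RVO pool throughout, and Slc32a1 is highest in control eyes.

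RVO replicate 2 was the highest of the RVO pools for all 9 genes, as it was for 42.9% of 17112 genes. The spread between RVO pools was wide, with a coefficient of variation of 19.8% to 46.1% (median 37.8%, all genes 11.7%). In control pools it was 0.21% to 10.5% (median 4.48%, all genes 7.13%) and in untreated pools 1.53% to 21.2% (median 6.82%, all genes 8.43%). Without RVO replicate 2 all 9 genes were lower in RVO than in untreated eyes at an adjusted p under 0.01, with a median log2FC of -1.61, and all 9 were lower than in control eyes, with a median of -1.36 and adjusted p-values from 3.05e-06 to 0.000272 (edgeR, BH). By that rule 5055 of all 16300 genes were then lower than in untreated eyes. Against control eyes 3315 of all 17199 genes were lower, where the fit with all pools gave 107 of 16874. Without both RVO replicate 2 and control replicate 1, all 9 were lower than in control eyes at 0.01 as well, with a median of -1.37, where 2719 of all 16985 genes were lower. At 0.05, the count of 9 genes lower in RVO than in control eyes was 8 when RVO replicate 1 was left out, 6 when control replicate 2 was, and 0 for RVO replicate 3, control replicate 1 or control replicate 3. In each of these fits all 9 genes had an unadjusted p under 0.05. The median log2FC was -0.80 and -0.94 when RVO replicate 1 or 3 was left out, and -1.04, -1.06 and -1.003 when control replicate 1, 2 or 3 was, against -1.04 with all pools. The call between the laser-treated groups thus depended on which pools entered the fit.

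GABA is made from glutamate by the enzymes GAD67, encoded by Gad1 (chromosome 2 of GRCm38, 70553072 to 70602014), and GAD65, encoded by Gad2 (chromosome 2, 22622205 to 22693874). Normalised CPM of Gad1 were 318, 306 and 293 in untreated replicates 1 to 3, 252, 242 and 264 in control replicates, and 93.0, 168 and 106 in RVO replicates. The 3 groups did not overlap, and the control pools lay between the others. Gad1 was 2.52-fold lower in RVO than in untreated eyes (log2FC -1.33, SE 0.20, BH-adjusted p in edgeR = 0.000533), and in control eyes it fell with a log2FC of -0.29 (SE 0.06, adjusted p = 0.000518). For Gad2 the values were 88.9, 90.5 and 80.7 CPM in untreated, 52.4, 52.3 and 52.5 CPM in control, and 16.0, 36.3 and 19.3 CPM in RVO replicates. Again each group stood clear of the next, and Gad2 showed the largest decrease of the 9 genes, 3.68-fold, between RVO and untreated eyes (log2FC -1.88, SE 0.27, BH-adjusted p in edgeR = 0.000487). It also had the lowest log2FC of the 9 genes in control eyes, -0.75 (SE 0.06, adjusted p = 4.83e-07 in edgeR). Between RVO and control eyes the log2FCs were -1.05 for Gad1 (adjusted p = 0.013) and -1.14 for Gad2 (adjusted p = 0.0194, edgeR, BH).

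The ratio of reads of the 2 enzyme genes differed between laser-treated and untreated pools. There were 3.58, 3.38 and 3.63 Gad1 reads per Gad2 read in untreated pools, 4.81, 4.62 and 5.03 in control pools and 5.83, 4.63 and 5.52 in RVO pools. Every laser-treated pool lay above every untreated pool, while RVO and control pools overlapped. The ratio is taken within a pool and does not depend on its scaling. It is given without a test.

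Slc32a1 (chromosome 2, 158610767 to 158615748) encodes the vesicular transporter VGAT, which loads both GABA and glycine into synaptic vesicles, and it took another course than the enzymes. It had 54.4, 52.8 and 60.3 CPM in untreated, 90.5, 86.4 and 98.3 CPM in control, and 36.2, 71.0 and 41.5 CPM in RVO replicates. All control pools were above all untreated and all RVO pools, and RVO replicate 2 was above the untreated pools while the other RVO pools were below them. The transporter rose 1.62-fold in control eyes (log2FC 0.70, SE 0.07, BH-adjusted p in edgeR = 2.21e-06). In RVO against untreated eyes its log2FC was -0.19 (SE 0.23, adjusted p = 0.488) and between RVO and control eyes -0.89 (SE 0.23, adjusted p = 0.0236 in edgeR). Without RVO replicate 2 the value against untreated eyes was -0.52, with an adjusted p of 0.000146 (edgeR, BH). It turned to 0.011 without RVO replicate 1 and to 0.022 when pools were scaled by library size only. Per 100 reads of Gad1 and Gad2 there were 13.4, 13.3 and 16.1 reads of Slc32a1 in untreated pools, 29.8, 29.4 and 31.0 in control pools and 33.2, 34.7 and 33.1 in RVO pools. On this scale the RVO pools were the highest and agreed closely with each other, RVO replicate 2 included.

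**Figure D2:**
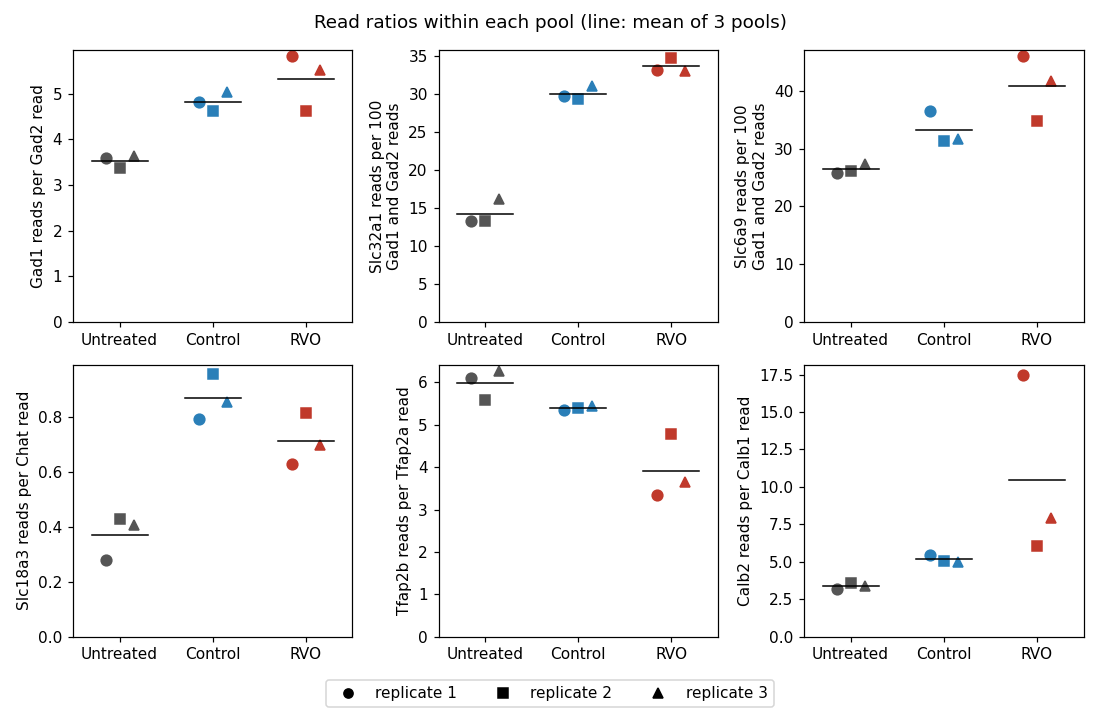
Ratios of read counts within each pool (vertical axes, from 0), with circles, squares and triangles for replicates 1, 2 and 3 and a line for the mean of 3 pools. Slc32a1 reads per 100 Gad1 and Gad2 reads lie at 13.3 to 16.1 in untreated and at 29.4 to 34.7 in all laser-treated pools, and Calb2 reads per Calb1 read reach 17.4 in RVO replicate 1.

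The GABA pathway list held 9 genes for synthesis, transport and breakdown, these 3 included. In RVO against untreated eyes 6 of the 9 fell and none rose, with a median log2FC of -0.92. Of the other 6 genes 4 fell, with a median of -0.90. In control eyes 5 of the 9 fell and 1 rose (Slc32a1), with a median of -0.29, and between RVO and control eyes 8 were lower and 1 higher at 0.05 (Slc6a13, a GABA transporter gene, log2FC 0.59), none at 0.01. Of all genes 24.6% fell and 27.4% rose in RVO against untreated eyes, and 25.2% fell and 27.2% rose in control eyes. Between RVO and control eyes 17.1% were lower and 17.5% higher at 0.05.

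Glycine is cleared by the transporter GlyT1, encoded by Slc6a9 (chromosome 4, 117834506 to 117875198) and a marker of glycinergic amacrine cells. Its normalised CPM were 105, 104 and 102 in untreated, 111, 92.3 and 100.4 in control, and 50.1, 71.1 and 52.4 in RVO replicates. Control and untreated pools overlapped, and all RVO pools were lower. Slc6a9 fell 1.80-fold between RVO and untreated eyes (log2FC -0.85, SE 0.13, BH-adjusted p in edgeR = 0.000602). After control laser treatment its log2FC was -0.05 (SE 0.06, adjusted p = 0.482), which became 0.12 with library size only and 0.0038 without control replicate 2. The difference between RVO and control eyes was -0.81 (adjusted p = 0.0109 in edgeR). The exons of Slc6a9 share 1429 bases with Ccdc24 on the opposite strand, which had 359 to 1216 reads, and 46 bases with B4galt2. The libraries were strand-specific, but the strand setting of the counting is not given in the sources used here, so reads of these genes may not be fully separated. The same holds for Tfap2a, which shares 380 bases with Gm26688 on the opposite strand (7 to 30 reads). It also shares 265 and 73 bases with Gm47061 and Gm47067, which were not in the count table. Slc32a1 shares 697 bases with Gm14205 on the opposite strand, which had 0 reads.

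In the glycine list of 13 genes, which includes Slc6a9 and Slc32a1, 7 fell and 3 rose between RVO and untreated eyes, where 24.6% of all genes fell and 27.4% rose. The median log2FC was -0.85, the value of Slc6a9. Without both genes 6 of 11 fell and 3 rose, with a median of -1.50. The neuronal glycine transporter gene Slc6a5 (GlyT2) fell from 34.6, 34.1 and 31.6 CPM in untreated to 7.13, 17.3 and 9.14 CPM in RVO replicates, with 28.3, 25.8 and 28.5 CPM in control replicates (log2FC RVO versus untreated -1.60, adjusted p = 0.00145 in edgeR). The 3 groups did not overlap. The largest decreases were those of the glycine receptor subunit genes Glra3, with a log2FC of -2.86 (adjusted p = 0.000818), and Glra2, with -1.92 (adjusted p = 0.000455, edgeR, BH). Of the 4 genes of glycine metabolism in the list 3 rose: Shmt2, a mitochondrial enzyme that interconverts serine and glycine, rose by 1.498 (adjusted p = 0.000211), and Gldc, a subunit of the glycine cleavage system, rose by 0.94 (adjusted p = 0.000258, edgeR). The third gene that rose, Gcsh (log2FC 0.84), encodes another subunit of that system. Amt, a further subunit gene, did not pass, with a log2FC of -0.09 in RVO (adjusted p = 0.447) and 0.14 in control eyes (adjusted p = 0.171, edgeR). In control eyes 5 of the 13 genes fell and 4 rose with a median of -0.30, and those that rose were Slc32a1, Shmt2, Gldc and Gcsh. Of all genes 25.2% fell and 27.2% rose there, so the share that rose was near that of all genes. Between RVO and control eyes 8 were lower and 2 higher at 0.05 (Shmt2 and Gcsh), where 17.1% of all genes were lower and 17.5% higher. Gldc did not pass, with a log2FC of 0.07 (adjusted p = 0.647).

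Starburst amacrine cells are marked by Chat (chromosome 14, 32408203 to 32465989), which encodes choline acetyltransferase. It had 11.5, 10.02 and 12.4 CPM in untreated, 10.6, 9.54 and 11.8 CPM in control, and 4.00, 7.43 and 4.88 CPM in RVO replicates. Untreated and control pools could not be separated, and the RVO pools were below both. Between RVO and untreated eyes Chat fell 2.11-fold (log2FC -1.08, SE 0.23, BH-adjusted p in edgeR = 0.00373). The adjusted p was over 0.01, from 0.0102 to 0.0193, without RVO replicate 3 or without any 1 of the untreated replicates. Its log2FC was -0.11 between control and untreated eyes (adjusted p = 0.443, 0.065 with library size only) and -0.98 between RVO and control eyes (adjusted p = 0.0187, edgeR).

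Slc18a3, which encodes the vesicular acetylcholine transporter, lies inside an intron of Chat on the same strand, and the exons of the genes share no bases. Its normalised CPM were 3.22, 4.28 and 5.05 in untreated, 8.39, 9.14 and 10.1 in control, and 2.52, 6.06 and 3.42 in RVO replicates, from 36 to 239 reads per pool. The control pools were the highest, and untreated and RVO pools overlapped. Slc18a3 rose in control eyes by 1.10 on the log2 scale (SE 0.16, edgeR's Benjamini-Hochberg adjusted p = 5.85e-05). In RVO against untreated eyes its log2FC was -0.10 (SE 0.34, adjusted p = 0.812), with a sign that changed with the pools included, and between RVO and control eyes -1.22 (adjusted p = 0.021, edgeR). Slc32a1, the other vesicular transporter gene described above, likewise was highest in control pools and did not pass the test between RVO and untreated eyes. Per Chat read there were 0.279, 0.427 and 0.407 reads of Slc18a3 in untreated pools, 0.793, 0.957 and 0.857 in control pools and 0.629, 0.815 and 0.70 in RVO pools. Every laser-treated pool thus had more reads of the vesicular transporter per read of the enzyme than every untreated pool.

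Slc5a7, the choline transporter gene, had 19.7, 20.7 and 18.5 CPM in untreated, 12.3, 11.6 and 11.6 CPM in control, and 3.77, 9.32 and 6.25 CPM in RVO replicates. It fell both in RVO eyes (log2FC -1.63, adjusted p = 0.0012) and in control eyes (-0.75, adjusted p = 1.22e-05, edgeR, BH), where Chat did not pass the test. Of 11 cholinergic genes, Chat included, 7 fell and 1 rose between RVO and untreated eyes, with a median of -1.08, the value of Chat. Without Chat 6 of 10 fell and 1 rose, with a median of -0.86. The nicotinic receptor subunit genes Chrna6 and Chrnb3, at log2FCs of -2.58 (adjusted p = 0.000463) and -2.37 (adjusted p = 0.000605, edgeR), fell most. Ache, which encodes the acetylcholine-degrading esterase, rose by 0.96 (adjusted p = 0.000215, edgeR). In control eyes 5 of the list fell and 2 rose (Slc18a3 and Ache), with a median of -0.44, and 7 were lower in RVO than in control eyes at 0.05.

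Th (chromosome 7, 142892752 to 142931128) encodes tyrosine hydroxylase, the rate-limiting enzyme of dopamine synthesis. It was the least abundant of the 9 genes, with 39 to 105 reads per pool. It had 4.65, 4.21 and 6.24 CPM in untreated, 4.20, 4.06 and 4.44 CPM in control, and 1.35, 3.18 and 1.73 CPM in RVO replicates. The RVO pools were below all others, whereas control and untreated pools overlapped. Th fell 2.46-fold between RVO and untreated eyes (log2FC -1.30, SE 0.33, BH-adjusted p in edgeR = 0.00839). Among the alternatives tried, this call was lost more often than that of any other of the 8 genes. The adjusted p was 0.0163 with library size only and 0.0174 to 0.0415 without RVO replicate 1 or 3 or any 1 of the untreated replicates. Its log2FC was -0.28 between control and untreated eyes (SE 0.17, adjusted p = 0.176) and -1.04 between RVO and control eyes (SE 0.30, adjusted p = 0.0343, edgeR).

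The catecholamine list was less uniform in direction. Of 15 genes 14 passed the filter for RVO and untreated eyes. Of these 4 fell (Th, Drd1, Drd2 and Slc18a2) and 3 rose (Slc6a2, Gch1 and Drd4), where 24.6% of all genes fell and 27.4% rose. The median log2FC was -0.03, close to the 0.01 of all genes. Without Th 3 of 13 fell and 3 rose, with a median of 0.06. Drd2, the dopamine receptor gene, fell by 2.20 (adjusted p = 0.000778), and Slc18a2, the vesicular monoamine transporter gene, fell by 1.68 (adjusted p = 0.000672, edgeR, BH). In control eyes, where the vesicular transporter genes for GABA and acetylcholine rose, Slc18a2 fell by 0.73 (adjusted p = 0.000138, edgeR). Ddc, which encodes the decarboxylase after tyrosine hydroxylase, had only 9 to 26 reads per pool and a log2FC of -0.69 between RVO and untreated eyes (adjusted p = 0.142, edgeR). The largest increase was that of Slc6a2, the noradrenaline transporter gene, from 0.447, 0.382 and 0.491 CPM in untreated replicates to 6.93, 7.77 and 4.44 CPM in control and 26.7, 11.9 and 21.2 CPM in RVO replicates. The 3 groups were far apart, with a log2FC of 5.47 between RVO and untreated eyes (adjusted p = 2.64e-05) and 3.81 between control and untreated eyes (adjusted p = 7.25e-07, edgeR, BH). Gch1, needed to make the cofactor of tyrosine hydroxylase, rose by 2.15 in RVO and 1.68 in control eyes (adjusted p = 0.000104 and 0.0003, edgeR). Between control and untreated eyes 2 of 13 tested genes fell (Slc18a2 and Drd2) and 4 rose (Slc6a2, Gch1, Qdpr and Drd4), and between RVO and control eyes 1 gene, Drd4, was higher at 0.01. At 0.05 there were 5 lower (Th, Slc18a2, Qdpr, Drd1 and Drd2) and 2 higher (Slc6a2 and Drd4). Of all genes 25.2% fell and 27.2% rose in control eyes. Between RVO and control eyes 2.7% were higher at 0.01, and 17.1% were lower and 17.5% higher at 0.05.

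Calb2 (chromosome 8, 110137502 to 110168210) encodes calretinin, a calcium-binding protein of many amacrine and some ganglion cells. Its normalised CPM were 392.2, 395 and 377 in untreated, 327, 308 and 339 in control, and 83.8, 191 and 102 in RVO replicates. The groups were separate, and the log2FC between RVO and control eyes was the lowest of the 9 genes, -1.38 (SE 0.28, adjusted p = 0.0134, edgeR, BH). Against untreated eyes Calb2 fell 3.12-fold in RVO (log2FC -1.64, SE 0.27, BH-adjusted p in edgeR = 0.000905) and by 0.28 on the log2 scale in control eyes (SE 0.05, adjusted p = 0.000712). Calb1, which encodes the related calbindin of horizontal and some amacrine cells, fell from 123, 109.7 and 111 CPM in untreated to 4.80, 31.5 and 12.9 CPM in RVO replicates, with 60.2, 61.1 and 68.2 CPM in control replicates. There were 3.18, 3.60 and 3.40 Calb2 reads per Calb1 read in untreated, 5.43, 5.04 and 4.98 in control, and 17.4, 6.07 and 7.90 in RVO pools. All RVO pools were above all others, and replicate 1 was far above the rest. Of 10 genes for calcium-binding proteins 7 fell and none rose between RVO and untreated eyes (median -1.09), with Calb1 at -2.83 (adjusted p = 0.00202) and Necab1 at -2.34 (adjusted p = 0.000332, edgeR) as the largest decreases. In control eyes 6 fell and 1 rose (Hpca), with a median of -0.28, and between RVO and control eyes 9 were lower at 0.05. Of all genes 24.6% fell and 27.4% rose in RVO against untreated eyes, and 25.2% fell and 27.2% rose in control eyes. Between RVO and control eyes 17.1% were lower at 0.05.

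The AP-2 transcription factor genes Tfap2a (chromosome 13, 40715302 to 40738376) and Tfap2b (chromosome 1, 19208914 to 19238576) are used to recognise amacrine cells and are also active in horizontal cells. Tfap2a had 36.9, 38.2 and 31.3 CPM in untreated, 28.5, 26.3 and 27.0 CPM in control, and 13.4, 20.4 and 14.4 CPM in RVO replicates. For Tfap2b the values were 225, 214 and 196 CPM in untreated, 153, 142 and 147 CPM in control, and 44.8, 97.3 and 52.5 CPM in RVO replicates. Neither gene's groups overlapped, and the order from untreated to control to RVO was the same for both. Tfap2a fell 2.23-fold between RVO and untreated eyes (log2FC -1.15, SE 0.17, BH-adjusted p in edgeR = 0.000475), and Tfap2b fell 3.29-fold (-1.72, SE 0.26, adjusted p = 0.000595). In control eyes the log2FCs were -0.39 (SE 0.08, adjusted p = 0.0013) and -0.54 (SE 0.06, adjusted p = 5.52e-06, edgeR). Between RVO and control eyes they were -0.77 (adjusted p = 0.0134) and -1.19 (adjusted p = 0.016, edgeR). Reads of Tfap2b per read of Tfap2a numbered 6.10, 5.60 and 6.27 in untreated, 5.36, 5.40 and 5.45 in control, and 3.34, 4.78 and 3.64 in RVO pools, without overlap between groups.

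Of 26 transcription factor genes of developing or mature amacrine cells, Tfap2a and Tfap2b included, 24 passed the filter for RVO and untreated eyes. Of these 17 fell and 1 rose, with a median log2FC of -1.32. Without Tfap2a and Tfap2b 15 of 22 fell and 1 rose, with the same median. Tfap2d, another AP-2 gene, fell by 2.63 (adjusted p = 0.000566) and Neurod4 by 2.61 (adjusted p = 0.00102, edgeR). Pax6, which is expressed in all amacrine cells and also in horizontal and ganglion cells, fell by 1.26 (adjusted p = 0.000836) in RVO and by 0.47 (adjusted p = 4.68e-05, edgeR) in control eyes. Sox2 was the gene that rose. It is found in Mueller glia besides some amacrine cells, and it had 21.1, 18.9 and 20.7 CPM in untreated, 27.3, 38.7 and 33.5 CPM in control, and 46.5, 51.3 and 57.8 CPM in RVO replicates (log2FC RVO versus untreated 1.35, adjusted p = 2.95e-05, edgeR). Its groups did not overlap. In control eyes 16 of 24 fell and 1 rose (Sox2), with a median of -0.49, and between RVO and control eyes 17 were lower and 2 higher at 0.05 (Sox2 and Neurod1). Of 20 other genes of amacrine subtypes, such as neuropeptides and synaptic proteins, 12 fell and 1 rose between RVO and untreated eyes, with a median of -1.17. The peptide gene Cck fell by 2.24 (adjusted p = 0.000305) and the adhesion molecule gene Cntn5 by 1.86 (adjusted p = 0.000979), while Gal, which encodes the neuropeptide galanin, rose by 2.50 (adjusted p = 0.00038, edgeR, BH). In control eyes 10 fell and 4 rose (Gal, Sst, C1ql2 and Stx1a), with a median of -0.40, and between RVO and control eyes 12 were lower and 2 higher at 0.05 (Slc17a8 and Penk). For comparison with both lists, 24.6% of all genes fell and 27.4% rose in RVO against untreated eyes. In control eyes 25.2% fell and 27.2% rose, and between RVO and control eyes 17.1% were lower and 17.5% higher at 0.05.

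**Figure D3:**
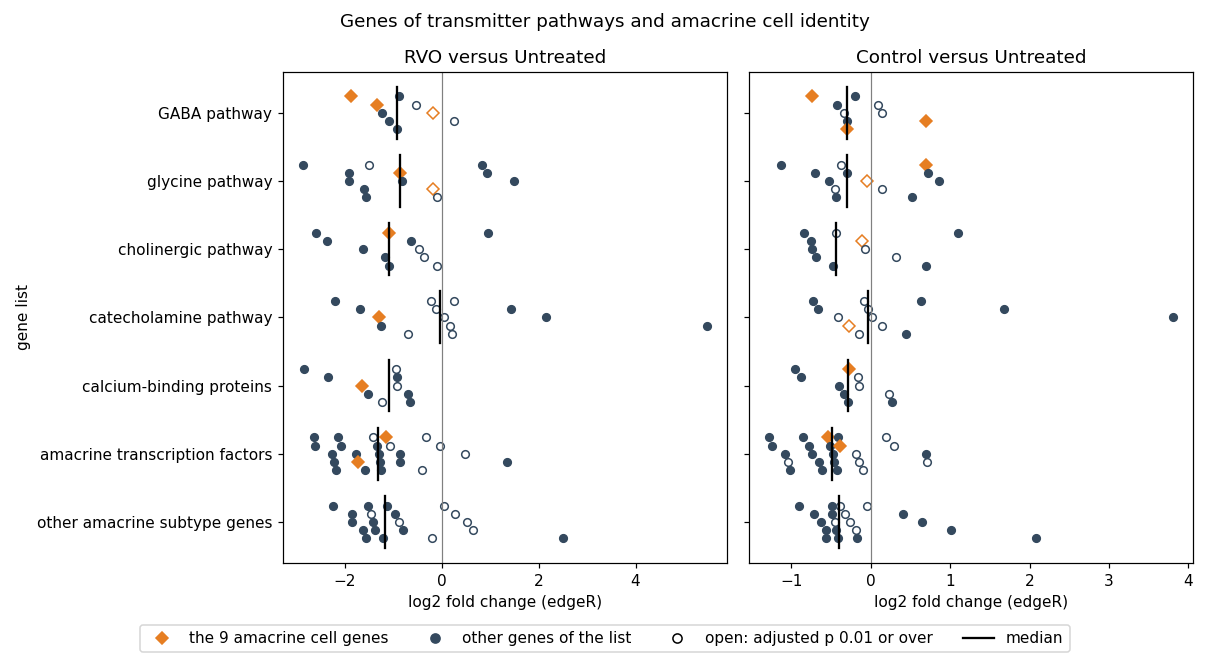
Log2 fold changes from edgeR (horizontal axes) of the genes of 7 lists (vertical axis) in RVO versus untreated and control versus untreated eyes, 1 symbol per gene, with orange diamonds for the 9 amacrine cell genes, open symbols for an adjusted p of 0.01 or over and a line for the list's median. In RVO eyes 6 of the 7 medians lie between -0.85 and -1.32 and that of the catecholamine list at -0.03, and in control eyes all 7 lie between -0.04 and -0.49.

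**Figure D4:**
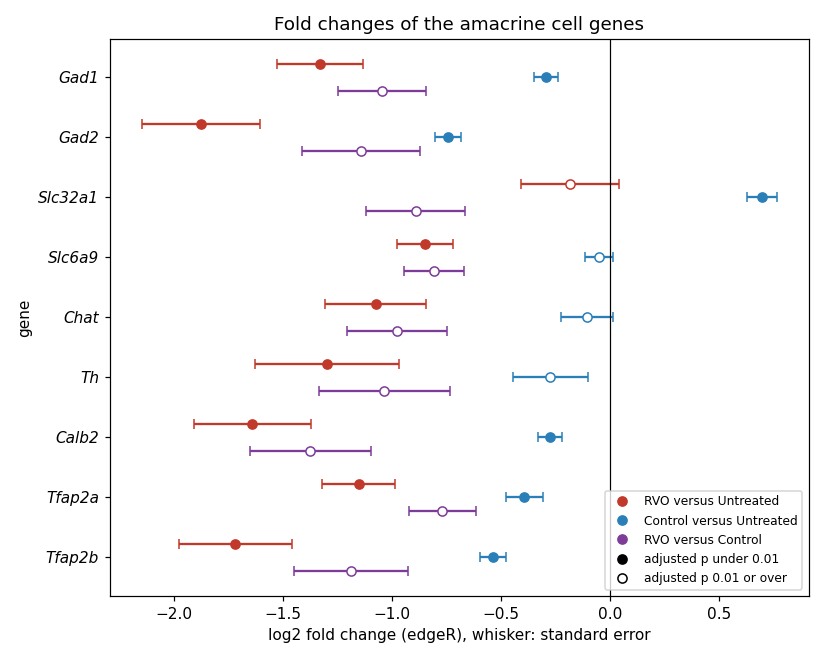
Log2 fold changes of the 9 genes (horizontal axis, edgeR) with whiskers for the standard error, coloured by comparison, where filled points have an adjusted p under 0.01. RVO versus untreated eyes spans -1.88 for Gad2 to -0.19 for Slc32a1, and the RVO versus control points, all open, span -1.38 to -0.77.

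To set the 9 genes beside each other, levels were divided by the length of their exons, which gives mean CPM per kilobase. In untreated eyes the order was Calb2 (223), Gad1 (40.0), Tfap2b (33.4), Slc6a9 (20.1), Slc32a1 (19.97), Gad2 (14.8), Tfap2a (7.23), Chat (2.41) and Th (2.13). Slc6a9 and Slc32a1 overlapped between pools, as did Chat and Th, and the other neighbours did not. In control eyes Slc32a1 stood at 32.8 CPM per kilobase beside Gad1 at 33.1, which overlapped with it, and ahead of Tfap2b at 23.3. In RVO eyes Calb2 was still first at 72.0 CPM per kilobase, without overlap with the next gene. Then came Slc32a1 at 17.7, Gad1 at 16.0, Slc6a9 at 11.3 and Tfap2b at 10.2 CPM per kilobase, where neighbours overlapped. At the low end Chat had 1.16 and Th 0.883 CPM per kilobase.

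The genes with the most similar profile were sought among 14973 genes with a mean of at least 1 CPM, by the root mean square difference of log2(CPM + 0.5) over the 9 samples after centring. The difference was 0.0478 and 0.0479 for Rimbp2 and Ryr2 beside Gad1, and 0.0443 and 0.0446 for Serpini1 and Pcdh10 beside Gad2. Calb2 was nearest to Gfra2 at 0.049 and Slc6a5 at 0.052, Tfap2a to Sorcs1 at 0.0545 and Plcl1 at 0.055, and Tfap2b to Gpr85 at 0.0467 and St8sia3 at 0.0505. Gsg1l and Adrbk2 were nearest to Slc6a9, at 0.0602 and 0.0627. Slc32a1 had less close neighbours, Cadm4 at 0.0786 and Nrxn2 at 0.0827. Chat was nearest to Gm14204 at 0.0759 and Trim9 at 0.0797, and Th to Chat and Gm14204, both at 0.109.

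Gm14204 is the noncoding gene whose exon lies in the printed Slc32a1 promoter, and its levels were looked at after its place among these neighbours was seen. It had 17.0, 16.2 and 20.3 CPM in untreated, 16.3, 15.7 and 18.8 CPM in control, and 5.71, 11.04 and 8.03 CPM in RVO replicates. Untreated and control pools overlapped and the RVO pools were lower, so that in control eyes it did not share the higher level of Slc32a1 next to it. Its log2FC was -0.10 between control and untreated eyes (adjusted p = 0.46) and -1.13 between RVO and untreated eyes (adjusted p = 0.00266, edgeR, BH).

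Markers of other retinal neurons were lower along with the amacrine cell genes. Between RVO and untreated eyes 5 of 7 horizontal cell markers, 10 of 10 ganglion cell markers and 9 of 10 bipolar cell markers fell, with medians of -2.22, -1.64 and -1.59, against -1.30 for the 9 amacrine cell genes. Of all genes tested 24.6% fell and 27.4% rose. The lists differ in size and expression, and the differences between their medians were not tested. The horizontal cell markers, which bear on the shared genes Gad1, Gad2, Slc32a1, Tfap2a and Tfap2b, summed to 423 to 462 CPM in untreated, 332 to 364 CPM in control and 69.9 to 206 CPM in RVO pools, and none was at 0. Their part in the decrease of these genes was not tested. Of 9 rod markers 8 fell and 1 rose (median -0.87), 6 of 8 cone markers fell (-1.24), and 4 of 8 Mueller cell markers fell (-0.64). Neutrophil markers went from 0.535 to 1.19 CPM in sum in untreated pools to 8.28 to 24.7 CPM in control and 47.2 to 104 CPM in RVO pools. Ly6g, Cxcr2 and Mmp8 of that list were at 0 in untreated pools. The 10 monocyte and macrophage markers summed to 17.2 to 22.1 CPM in untreated, 58.7 to 81.4 CPM in control and 134 to 160 CPM in RVO pools, with a median log2FC of 2.21 between RVO and untreated eyes and none at 0. Microglia markers had a median of -2.26 (5 of 8 fell), and endothelial markers 0.51 (4 of 8 rose). Pigment epithelium markers had a median of 0.84, but only 1 of 10 rose and 1 fell at 0.01. Corneal and surface epithelium markers had a median of 0.69, with 1 of 6 tested higher and 1 lower. The 10 pigment epithelium markers summed to 897 CPM in RVO replicate 2 and to 418 and 577 CPM in RVO replicates 1 and 3, against 442 to 511 CPM in the other groups. The part of these cell types in the levels of the 9 genes was not tested.

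**Figure D5:**
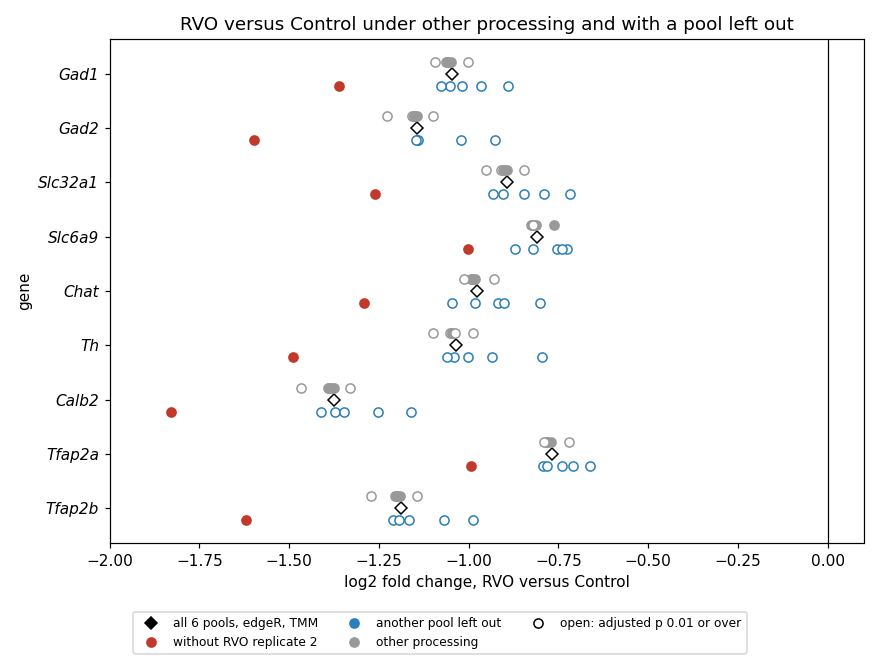
Log2 fold change of each of the 9 genes between RVO and control eyes (horizontal axis) in the fit of all 6 pools (diamonds), without RVO replicate 2 (red), without any other pool (blue) and with other processing (grey), where filled symbols have an adjusted p under 0.01. All values are below 0, and leaving out RVO replicate 2 gives the lowest value and a filled symbol for each gene.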

How the data were processed

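RNA was sequenced from 9 pools of retinas in 3 groups of 3. The authors mapped the reads with STAR 2.5.2b to the mouse genome (GRCm38, Gencode vM11), counted them per gene with featureCounts of Subread 1.5.1 and deposited these counts without normalization. Handling of strand and of reads matching several places is not given in the sources used here. The paper's qPCR and imaging were not used. The result of 1 gene is not reported here.

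The test was edgeR 4.0.16 under R 4.3.3. Each of the 3 comparisons had its own fit of 6 pools, with genes filtered by filterByExpr, scaled by TMM and tested with the quasi-likelihood test, with Benjamini-Hochberg adjustment over all genes tested and calls at an adjusted p under 0.01 or 0.05. The SE is the log2FC divided by the square root of F. Levels are CPM with TMM factors over all 9 samples. Exon lengths and positions are from GENCODE vM21. Replicates differed by more than counting noise (chi-square per degree of freedom 3.15 to 54.1), and CPM values of low genes such as Th rest on few reads. Alternatives were DESeq2 1.42.0 (size factors, Wald test), library size only, no filter, a block for the replicate number, 1 fit of all 9 samples, and each pool left out. Leaving out both pools with the most lens RNA was chosen after seeing the data. The procedure was tested on simulated counts, for RVO against untreated eyes only and with the same dispersion for all genes and both groups. The wider spread of the RVO pools was thus not simulated.

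The 9 genes and the lists were chosen with earlier results of these data known. Of each pathway list, up to 2 called genes with the largest rise and fall between RVO and untreated eyes are named, with Slc18a3, Slc5a7, Slc6a5, Ddc, Slc18a2, Pax6 and Calb1 as partners, and the 2 nearest profiles of each of the 9 genes. Other genes named beside counts of 5 or fewer, and Gm14204, were chosen after their values were seen.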

Additional observations from a re-analysis of the deposited data

How the results depend on the processing

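The count of 8 amacrine cell genes lower in RVO than in untreated eyes was 7 to 8 under the other processing and 6 to 9 with 1 pool left out, with none higher in any of these fits. Over all genes the count lower, 4037, was 2741 to 4922 under the other processing and 2710 to 5055 with 1 pool left out. The adjusted p of Th and Chat crossed 0.01 as given with these genes. Between control and untreated eyes the counts of 5 lower and 1 higher became 2 lower and 1 higher with library size only, and 0 lower and 0 higher in 1 fit of all 9 samples, which shares the wide spread of the RVO pools. Over all genes 4045 lower and 4371 higher became 2484 and 5902 with library size only. In the fit of all 9 samples they became 2997 and 3403. Leaving out 1 pool gave 4 to 5 lower and 1 higher, the 4 without untreated replicate 2, where Tfap2a had an adjusted p of 0.0101 (edgeR, BH). Over all genes it gave 3424 to 4022 lower and 3491 to 4093 higher. Between RVO and control eyes the count of 0 lower at 0.01 became 9 at 0.05, 9 with DESeq2's Wald test, 8 without a filter, 8 in 1 fit of all 9 samples, 1 with library size only and 9 without both RVO replicate 2 and control replicate 1, and ranged from 0 to 9 with 1 pool left out. Over all genes the count lower at 0.01 went from 107 of 16874 to 2161 of 29742 with the Wald test. It was 1740 of 29742 without a filter, 2021 of 17112 with all 9 samples and 202 of 16874 with library size only. Without both pools it was 2719 of 16985, and with 1 pool left out 0 to 3315. The cause was not tested.

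Scaling by library size only gave an all-gene median log2FC of 0.22 (RVO versus untreated), 0.19 (control versus untreated) and 0.07 (RVO versus control), and the split of genes higher and lower from 4492 and 4037 to 5967 and 2741 in the first and from 4371 and 4045 to 5902 and 2484 in the second. Relative to that shift the medians of the 9 genes, -1.09 and -0.10, remained below those of all genes. With it the sign turned for Slc32a1 (0.022) and Slc18a3 (0.11) between RVO and untreated eyes and for Slc6a9 (0.12) and Chat (0.065) between control and untreated eyes. Leaving out 1 pool gave log2FC from -0.52 to 0.011 for Slc32a1 and from -0.52 to 0.17 for Slc18a3 in RVO against untreated eyes, from -0.12 to 0.0038 for Slc6a9 and from -0.22 to 0.19 for Ddc in control against untreated eyes, and from -0.065 to 0.18 for Gldc in RVO against control eyes. Gldc had -0.092 without both pools with the most lens RNA. None of these genes had passed the test in that comparison.

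Whether replicate numbers pair the pools is not stated. The deviations of same-numbered pools correlated with r from -0.17 to 0.11, and not every pool correlated best with its own number. With the replicate number as a block, 8 genes were lower between RVO and untreated eyes, 5 lower and 1 higher between control and untreated eyes and 0 lower between RVO and control eyes at 0.01 (8 at 0.05). Over all genes the block moved the calls between RVO and control eyes from 563 to 0, with 7227 genes at an unadjusted p under 0.05 in edgeR. Values of genes with few reads, such as Th with 39 to 105 and Ddc with 9 to 26 per pool, are limited by depth.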
